A study of Homo sapiens with 18 samples.

Results

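Mitochondrial ribosomal protein genes are the nuclear genes for the protein subunits of the ribosome inside mitochondria. They were taken as every entry whose symbol is MRPL or MRPS followed by a number and at most 1 letter. This gave 73 of the 13992 symbols listed, 48 of the large subunit (MRPL) and 25 of the small subunit (MRPS). The set is not complete: MRPS12, MRPS18B, MRPS24 and MRPL23 have no entry of that symbol, and subunits under other symbols are given apart. All 73 passed the filter on low values (FPKM of at least 0.5 in at least 3 libraries), as did 12127 genes of the series. FPKM is the number of fragments scaled by transcript length and library total. The cells were HMC3, a wild-type human microglial cell line, given oxLDL (oxidized low-density lipoprotein, a particle taken up by scavenger receptors) for 24 h. The 6 doses ran upward through 0, 1, 2.5 and 10 µg/ml and then 50 and 100 µg/ml, and each had 3 libraries of poly-A RNA, 18 in all. Nothing in the labels states whether libraries sharing a dose were separate cultures, and each p-value therefore reflects only how far they scatter, possibly for technical reasons.

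The mitochondrial ribosome translates the few proteins encoded in mitochondrial DNA, which are subunits of the respiratory chain and the ATP synthase. Its own proteins are encoded in the nucleus, made in the cytosol and imported, and they assemble with ribosomal RNA transcribed from mitochondrial DNA. Some are homologs of bacterial ribosomal proteins, and others were added in the mitochondrial lineage. MRPS30 and MRPS18A carry small-subunit symbols, although their proteins sit in the large subunit.

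Depth, recovered from the steps of the FPKM values, was 13919066 to 37382244 reads per library. Of 11 markers of microglia fixed for the label check, 0 were among the listed genes. Of 5 markers of pericytes and fibroblasts all were tested, and COL1A1, a collagen chain, had a mean of 457.5 FPKM. Their summed level was 408.9 to 457.7 FPKM at 100 µg/ml and 579.9 to 633.8 FPKM at 0 µg/ml, and their part in the results below was not tested. Of the markers of astrocytes, neurons and endothelium, 1, 1 and 0 were tested, the highest with a mean of 1.45 FPKM. The named library kit does not mark strand, so reads of a gene and of a neighbour on the opposite strand cannot be told apart, which applies by exon overlap in GENCODE v29 to 27 of the 73 genes. The exons the authors counted differ from those: 0 of the 73 recovered lengths equal the GENCODE v29 exon length, which for MRPS35 is 1979 bp against the recovered 9103 bp.

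Most mitochondrial ribosomal protein genes were expressed well above the typical gene. The median over 18 libraries was 57.4 FPKM for the large subunit and 28.3 FPKM for the small subunit, against 6.46 FPKM for all tested genes. The highest large-subunit gene was MRPL12, the stalk protein that contacts translation factors, with a mean of 293.8 FPKM (271.4 to 313.3 over 18 libraries). MRPL51 (219.7 FPKM), MRPL41 (151.1 FPKM) and MRPL3 (132.2 FPKM) came next. Among the MRPS symbols MRPS7, a homolog of a bacterial head protein, was highest with a mean of 167.6 FPKM (156.0 to 181.6). It was followed by MRPS15 (118.1 FPKM), MRPS6 (110.0 FPKM) and MRPS10 (78.4 FPKM).

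The lowest large-subunit genes were MRPL42 (5.47 FPKM), MRPL45 (8.66 FPKM), MRPL50 (13.8 FPKM) and MRPL19 (15 FPKM). In the small subunit they were MRPS25 (8.69 FPKM), MRPS28 (8.87 FPKM), MRPS35 (8.95 FPKM) and MRPS33 (9.44 FPKM). Part of this order goes with the length by which the authors divided. The length implied by the FPKM steps was 15665 bp for MRPL42 and 9103 bp for MRPS35, against a median of 1570 bp over the members. MRPL42 had a median of 1768 reads per library, close to the 1720.5 reads of MRPL52, whose mean of 65.3 FPKM was over a length of 1304 bp. MRPL45, which tethers the ribosome to the inner membrane, is uncertain. A second listed entry, MRPL45_1, had the same length of 1553 bp and a mean of 7.31 FPKM, so reads may be split between both. Grouped by where the protein sits, with MRPS30 counted as an added large-subunit protein and MRPS18A and MRPS28 in no group, homologs of bacterial proteins had a median of 59.2 FPKM in the large subunit (29 genes) and 32.6 FPKM in the small subunit (13 genes). Added proteins had 54.8 FPKM (20 genes) and 17 FPKM (9 genes).

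**Figure D1:**
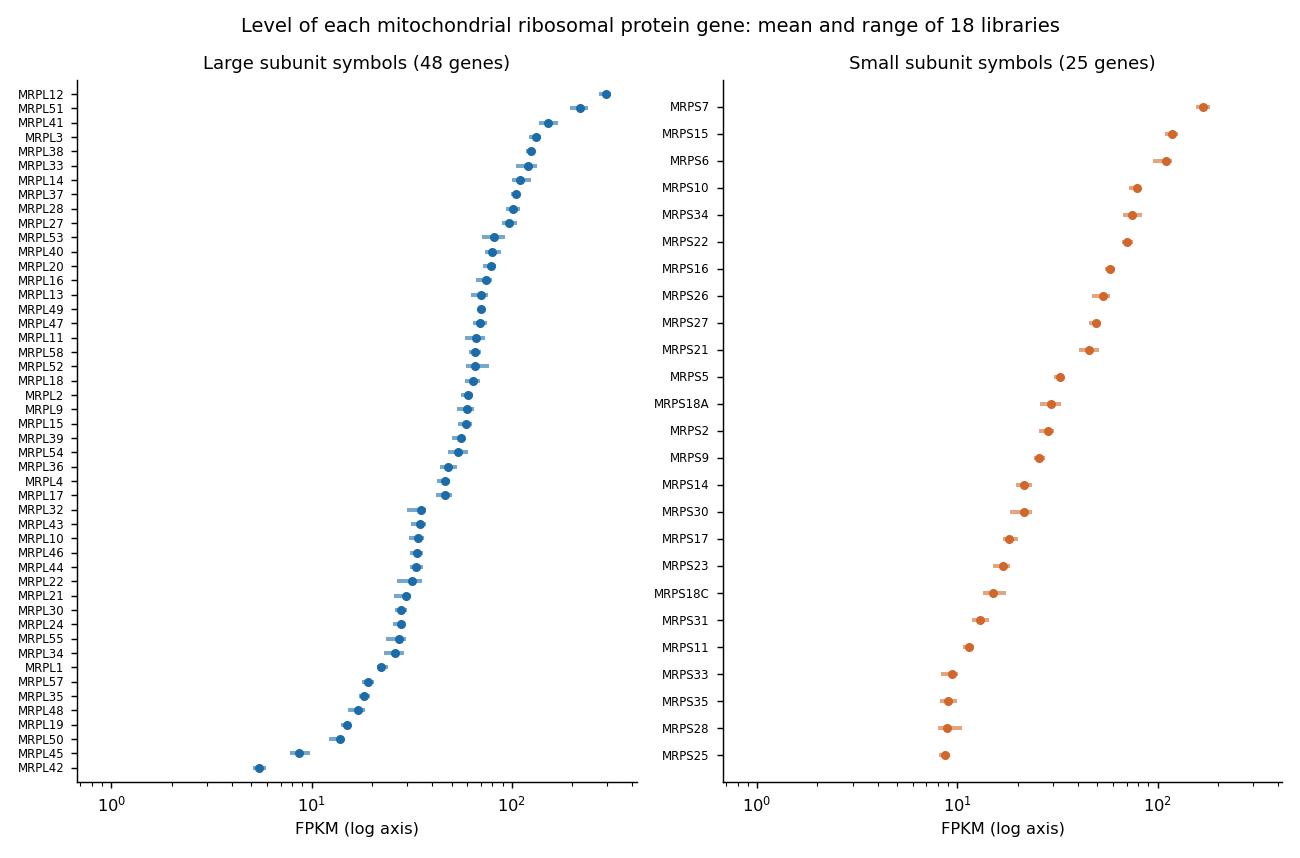
Mean (point) and range over 18 libraries (line) of FPKM, on a log axis, of 48 large-subunit and 25 small-subunit genes ordered by mean. Levels run between 5.47 and 293.8 FPKM in the large subunit and between 8.69 and 167.6 FPKM in the small subunit, and the range of each gene is narrow beside the differences between genes.

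The start sites of these genes often face another gene. In GENCODE v29, 17 of the 73 (23.3%) start head to head with a protein-coding gene within 1000 bp, against 9.93% of 10287 tested protein-coding genes. MRPL46 of the large subunit and MRPS11 of the small subunit form such a pair, 34 bp apart on chromosome 15. RefSeq promoters (GRCh38.p14, 250 bases before to 50 after the start) were found for 66 members. They were searched on both strands for 3 short motifs, named for the factors known to bind them: GCGCA, any base and GCGC for NRF1, CCGGAAGT for ETS factors and AAGATGGCG for YY1. The NRF1 letters were in 12.1% of member promoters and 12.4% of those of tested genes. The ETS letters were in 16.7% and 9.26%. The YY1 letters were in 16.7% and 4.34%, but in 4.55% and 1.29% of the part before the start, so most member matches reached past it. A match describes letters and is not evidence of binding.

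The 150 bases before the RefSeq start are given 5′ to 3′ in the gene's own direction for the 3 genes called at 100 µg/ml, for MRPL30, whose level rose with dose and whose promoter holds an NRF1 match, and for MRPL46, where they hold the GENCODE v29 start of MRPS11. Capitals mark motif matches.
MRPL11 (chr11:66438849-66438998, minus strand): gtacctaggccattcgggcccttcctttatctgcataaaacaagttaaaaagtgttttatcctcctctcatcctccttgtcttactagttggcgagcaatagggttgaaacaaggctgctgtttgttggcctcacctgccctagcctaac
MRPL52 (chr14:22829737-22829886, plus strand): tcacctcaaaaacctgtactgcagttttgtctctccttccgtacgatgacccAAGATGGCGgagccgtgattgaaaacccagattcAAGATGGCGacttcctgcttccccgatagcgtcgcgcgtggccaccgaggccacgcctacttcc
MRPS35 (chr12:27710682-27710831, plus strand): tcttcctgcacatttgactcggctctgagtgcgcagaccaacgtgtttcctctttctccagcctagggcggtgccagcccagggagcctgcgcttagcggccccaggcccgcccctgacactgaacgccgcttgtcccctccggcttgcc
MRPL30 (chr2:99181034-99181183, plus strand): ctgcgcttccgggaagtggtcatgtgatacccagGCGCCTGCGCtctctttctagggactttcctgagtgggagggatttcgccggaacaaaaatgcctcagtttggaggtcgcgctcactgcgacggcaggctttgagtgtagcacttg
MRPL46 (chr15:88467389-88467538, minus strand): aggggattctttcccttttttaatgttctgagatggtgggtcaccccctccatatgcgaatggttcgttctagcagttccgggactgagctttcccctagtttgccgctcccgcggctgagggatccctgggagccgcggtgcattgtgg
The MRPL52 region holds 2 YY1 matches, and the MRPL30 match is to the reverse complement of the NRF1 letters. The regions of MRPL11, MRPS35 and MRPL46 hold none of the 3.

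Few members changed at any dose, and the changes were small. Each dose was compared with 0 µg/ml in limma on log2(FPKM + 0.5), with p-values adjusted by Benjamini-Hochberg over all 12127 genes. At 100 µg/ml 3 of 73 members were called at an adjusted p under 0.05 (4.11%), where 15.5% of all tested genes were called. MRPL52 and MRPS35 rose, where 7.94% of all tested genes did, and MRPL11 fell, where 7.51% did. At 50 µg/ml 2 of 73 were called, against 7.47% of all tested genes. MRPS35 was higher (3.78% of all tested genes) and MRPL11 lower (3.69%). At 10 µg/ml limma called 0 members, against 0.0412% of all tested genes (0.033% higher, 0.00825% lower), and limma-voom on the recovered reads also called 0. At 2.5 and 1 µg/ml limma and limma-voom called 0 members, against 0% of all tested genes at each dose. Members at an unadjusted p under 0.05 numbered 12 at 100, 11 at 50, 13 at 10, 7 at 2.5 and 2 at 1 µg/ml, against 3403, 2656, 1185, 531 and 365 of all 12127 tested genes. All comparisons share the 0 µg/ml libraries and so are not independent.

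The intervals of the members were narrow. The 95% interval of the log2 fold change lay within 0.5 of zero for all 73 members at every dose, against 91% to 95.7% of all tested genes. At 100 µg/ml it lay within 0.25 for 68 of 73 members, against 58.3% of all tested genes, and the largest bound, 0.30, was that of MRPL11. The members' levels were mostly higher than those of all tested genes, and no share was taken for genes of similar level. The median SD within doses was 0.062 for members and 0.061 for tested genes with a mean between 5 and 300 FPKM. By that measure members were no tighter than genes in this range. The median log2 fold change over the members came to 0.0070 at 100 µg/ml and -0.0049 at 50 µg/ml, against -0.0037 and 0.0041 over all tested genes. The sign of neither median was stable, so no direction is read. At 100 µg/ml it was -0.0054 without replicate 1 at 0 and -0.0032 without replicate 1 at 100 µg/ml, and 0.024 without replicate 3 at 0 µg/ml. At 50 µg/ml it was 0.017 without replicate 3 at 0, 0.0037 and 0.011 without replicates 2 and 3 at 50 µg/ml and 0.0018 under quantile normalization. It was -0.022 and -0.025 without replicate 1 at 0 or at 50 µg/ml. At 100 µg/ml all 3 libraries lay above all 3 of 0 µg/ml for 10 members and below them for 7, against 16.5% and 16.9% of all tested genes. At 50 µg/ml these counts were 9 and 4, against 14.9% and 13.3%. In bulk RNA a lower level of a transcript can mean fewer cells that hold it or less of it per cell, which cannot be told apart.

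**Figure D2:**
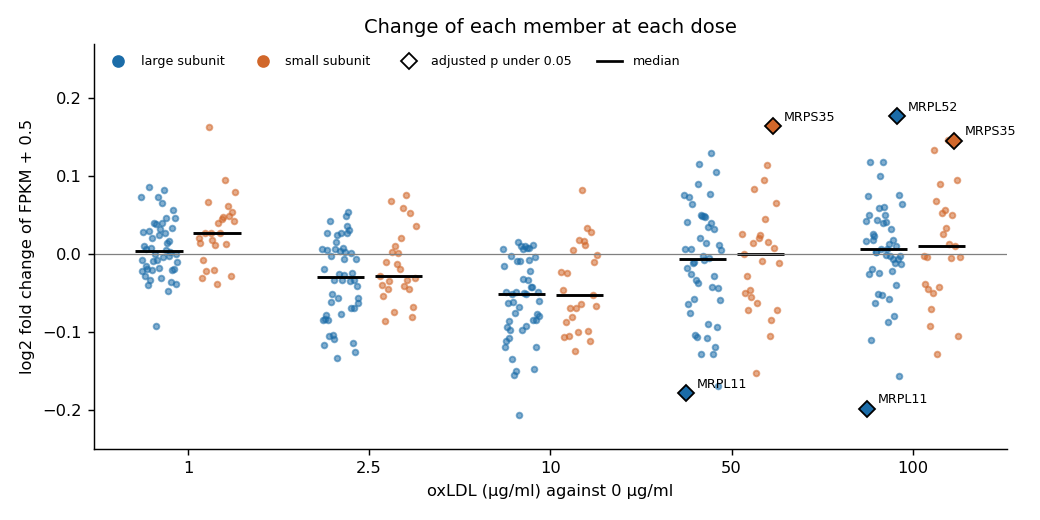
Log2 fold change of FPKM + 0.5 of each member at each dose against 0 µg/ml, 1 point per gene, large subunit left of small subunit within a dose, with the median as a bar. Diamonds mark the members called at an adjusted p under 0.05, which are MRPS35 and MRPL11 at 50 and 100 µg/ml and MRPL52 at 100 µg/ml. At 10 µg/ml most points lie below zero.

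MRPL11, a homolog of the bacterial protein at the base of the stalk, fell at both high doses (GRCh38 chromosome 11, 66435075 to 66466738, minus strand, exon overlap with PELI3 on the opposite strand). This span and overlap are those of GENCODE v29. The RefSeq promoter printed above (66438849 to 66438998) lies inside the span, so GENCODE v29 and RefSeq give different starts. The level of MRPL11 was 73.7, 70.0 and 70.0 FPKM at 0 µg/ml, 73.1, 67.7 and 71.8 at 1, and 70.3, 65.2 and 61.6 at 2.5 µg/ml. It was 65.0, 64.2 and 67.5 FPKM at 10, 65.3, 62.5 and 60.8 at 50, and 64.3, 63.2 and 58.6 at 100 µg/ml. The 3 libraries at each of 10, 50 and 100 µg/ml lay below all of those at 0 µg/ml. The mean was 62.0 ± 3.02 FPKM at 100 µg/ml and 71.2 ± 2.13 FPKM at 0 µg/ml (SD, n = 3 each), a log2 fold change of -0.20 (SE 0.048, limma, Benjamini-Hochberg adjusted p = 0.00853). The 50 µg/ml value was -0.18 (SE 0.048, adjusted p = 0.0305 in limma). Without replicate 3 at 100 µg/ml the call at that dose was lost (-0.16, limma adjusted p = 0.0560). At 50 µg/ml the call was lost without replicates 1, 2 or 3 at 0 µg/ml (limma adjusted p = 0.128, 0.0549 and 0.0620) and without replicates 2 or 3 at 50 µg/ml (0.0852 and 0.133). It was also lost with each library centred on its median (0.0818) or without the variance trend (0.0539).

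MRPL52, a large-subunit protein with no bacterial homolog, rose at 100 µg/ml (chromosome 14, 22829879 to 22835037, plus strand). Its level was 58.7, 63.2 and 67.7 FPKM at 0, 65.8, 64.8 and 63.3 at 1, and 64.7, 61.0 and 59.4 at 2.5 µg/ml. It was 61.1, 64.3 and 63.4 FPKM at 10, 68.6, 66.2 and 69.0 at 50, and 69.7, 67.9 and 77.0 at 100 µg/ml. All libraries at 100 µg/ml lay above those at 0 µg/ml, but the lowest at 100 µg/ml (67.9 FPKM) was close to the highest at 0 µg/ml (67.7 FPKM). The mean was 71.5 ± 4.79 FPKM at 100 µg/ml and 63.2 ± 4.5 FPKM at 0 µg/ml (SD, n = 3 each), a log2 fold change of 0.18 (SE 0.050, limma adjusted p = 0.0241). The call was lost without replicate 1 or 2 at 0 µg/ml (limma adjusted p = 0.138 and 0.0589) and without replicate 3 at 100 µg/ml (0.138). It was also lost with each library centred on its median (0.0525) and in a fit of the 2 doses alone (0.0956).

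MRPS35, a small-subunit protein added in mitochondria, rose at both high doses (chromosome 12, 27710773 to 27756295, plus strand). Its level was 8.86, 8.15 and 8.40 FPKM at 0, 8.41, 8.77 and 9.16 at 1, and 8.99, 8.77 and 8.64 at 2.5 µg/ml. It was 8.54, 8.29 and 9.13 FPKM at 10, 9.92, 9.36 and 9.36 at 50, and 9.70, 9.42 and 9.15 at 100 µg/ml. The libraries at 50 and at 100 µg/ml all lay above those at 0 µg/ml. The mean was 9.42 ± 0.276 FPKM at 100 µg/ml and 8.47 ± 0.363 FPKM at 0 µg/ml (SD, n = 3 each), a log2 fold change of 0.15 (SE 0.046, limma adjusted p = 0.0390). The 50 µg/ml value was 0.16 (limma adjusted p = 0.0372). The call at 100 µg/ml was lost without replicate 2 or 3 at 0 µg/ml (limma adjusted p = 0.146 and 0.0991) and without replicates 1, 2 or 3 at 100 µg/ml (0.130, 0.0871 and 0.0518). The call at 50 µg/ml was lost without the same libraries at 0 µg/ml (0.129 and 0.107), without replicates 1, 2 or 3 at 50 µg/ml (0.125, 0.0663 and 0.0735) and without replicate 2 at 100 µg/ml (0.0506). Centring each library on its median ended both calls (0.0767 at 100 and 0.0841 at 50 µg/ml), as did quantile normalization (0.0768 and 0.0693) and a fit of the 2 doses alone (0.0772 and 0.0741).

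**Figure D3:**
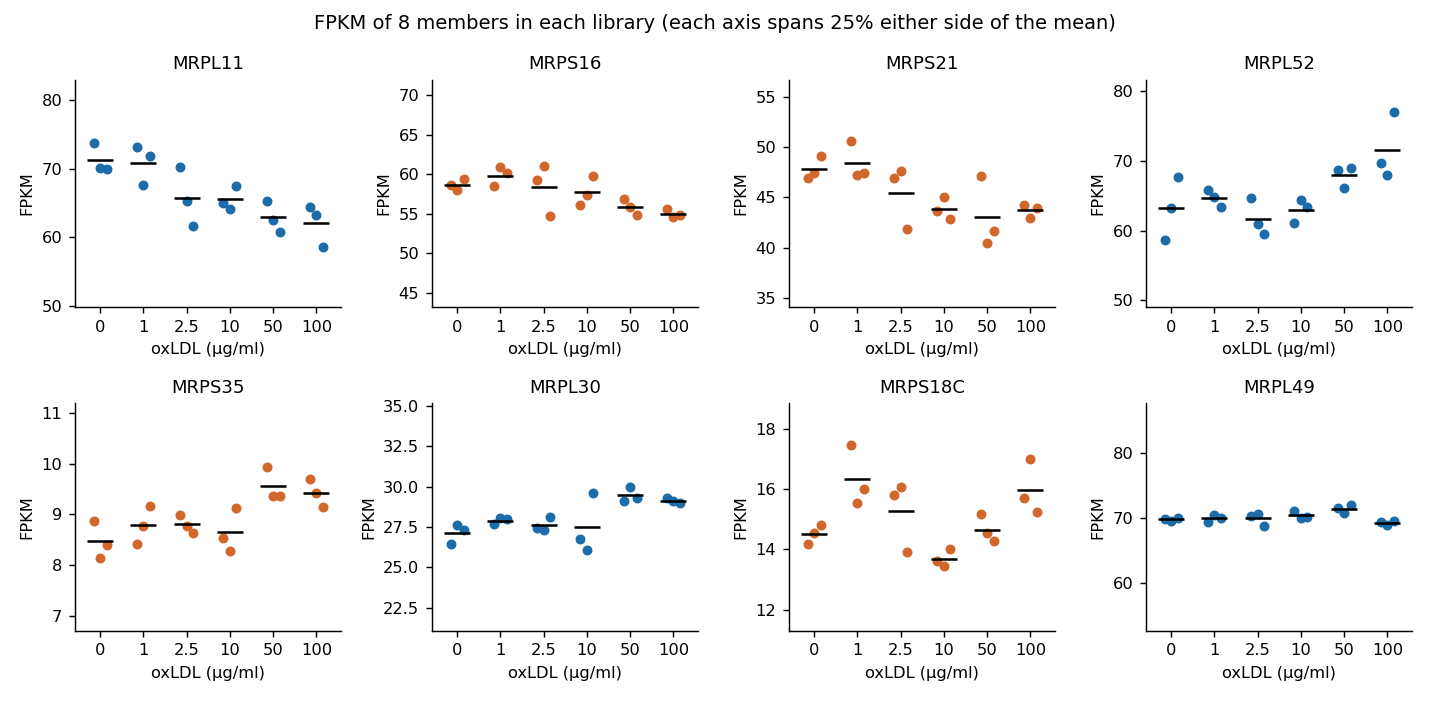
FPKM of 8 members in each of the 18 libraries, with the dose mean as a bar; each axis spans 25% either side of that gene's mean and does not start at 0. MRPL11, MRPS16 and MRPS21 are lower at 50 and 100 µg/ml than at 0 µg/ml in most libraries, MRPL52, MRPS35 and MRPL30 are higher at 100 µg/ml, MRPS18C moves up and down, and MRPL49 stays between 68.8 and 71.9 FPKM.

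A slope on log2(dose + 1) over all 18 libraries called 11 of 73 members (15.1%), against 25.6% of all tested genes. It called 4 rising (13% of all tested genes) and 7 falling (12.6%). Besides MRPL52 and MRPS35 the rising members were MRPL30 and MRPS30. MRPL30, a homolog of a bacterial large-subunit protein, had 29.3, 29.1 and 29 FPKM at 100 µg/ml and 26.4, 27.6 and 27.4 FPKM at 0 µg/ml. The groups did not overlap, and the slope was 0.016 per unit of log2(dose + 1) (SE 0.0045, limma adjusted p = 0.0136). MRPS30 had 23.6, 21.9 and 23.5 FPKM at 100 µg/ml and 19.5, 22.3 and 20.5 FPKM at 0 µg/ml. Those groups overlapped, and the slope was 0.022 (SE 0.0078, limma adjusted p = 0.0429).

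The falling members besides MRPL11 were MRPS16, MRPS21, MRPS7, MRPL16, MRPL54 and MRPL40. MRPS16, a homolog of a bacterial small-subunit protein, had 55.6, 54.7 and 54.8 FPKM at 100 µg/ml and 58.7, 58.1 and 59.4 FPKM at 0 µg/ml. The groups did not overlap, and the slope was -0.016 (SE 0.0041, limma adjusted p = 0.00570). MRPS21, also a homolog of a bacterial protein, had 44.2, 42.9 and 44.0 FPKM at 100 µg/ml and 46.9, 47.4 and 49.1 FPKM at 0 µg/ml. Those groups did not overlap either (slope -0.024, limma adjusted p = 0.00832). MRPS7 averaged 159.8 ± 4.42 FPKM at 100 µg/ml and 172.1 ± 8.61 FPKM at 0 µg/ml (SD, n = 3 each; slope adjusted p = 0.0131 in limma). For MRPL16, MRPL54 and MRPL40 the adjusted p of the slope was 0.0165, 0.0284 and 0.0459 in limma. In exon overlap on the opposite strand, MRPS16 shares bases with DNAJC9-AS1 and MRPS7 with GGA3 and MIF4GD.

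The slope calls of MRPL11, MRPS16, MRPS21, MRPS35 and MRPL52 held in all 28 other settings tried. MRPL16 was called except without replicate 3 at 100 µg/ml (limma adjusted p = 0.0693), and MRPL30 and MRPS7 except with each library centred on its median (0.0534 and 0.0505). MRPL54 lost its call without replicate 1 or 3 at 0, 2 or 3 at 50 or 2 at 100 µg/ml (limma adjusted p = 0.0541, 0.0692, 0.0621, 0.0537 and 0.0711). MRPS30 and MRPL40 lost theirs in 13 and 15 settings.

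An F test over all doses called 6 members (8.22%), against 15.4% of all tested genes: MRPL11, MRPS18C, MRPL33, MRPL18, MRPL52 and MRPL15. The slope did not call 4 of these, MRPS18C, MRPL33, MRPL18 and MRPL15. MRPS18C, the homolog of a bacterial small-subunit protein, averaged 14.5 ± 0.307 FPKM at 0, 16.3 ± 1.00 at 1, 15.3 ± 1.18 at 2.5, 13.7 ± 0.276 at 10, 14.7 ± 0.465 at 50 and 16 ± 0.898 at 100 µg/ml (SD, n = 3 each; F adjusted p = 0.0284 in limma). It was thus highest at 1 µg/ml and lowest at 10 µg/ml. MRPS18C shares exon bases with ABRAXAS1 on the opposite strand. MRPL33 averaged 126.1 ± 6.94 FPKM at 0, 125.3 ± 2.89 at 1, 121.2 ± 3.52 at 2.5, 109.2 ± 4.77 at 10, 115.4 ± 6.08 at 50 and 121.5 ± 5.96 at 100 µg/ml (SD, n = 3 each; limma F adjusted p = 0.0296). The mean of MRPL18 was lowest at 2.5 µg/ml, with 61.0 ± 2.29 FPKM there and 65.7 ± 0.970 FPKM at 0 µg/ml (SD, n = 3 each; limma F adjusted p = 0.0403). Its replicates 1, 2 and 3 had 62.3, 62.4 and 58.4 FPKM at 2.5 and 63.0, 60.2 and 61.0 FPKM at 10 µg/ml. Which dose was lowest thus rests on replicate 3 at 2.5 µg/ml. MRPL15 was lowest at 10 µg/ml and highest at 100 µg/ml, with means of 55.6 and 63.0 FPKM (limma F adjusted p = 0.0415). MRPL11 lost its F call without replicate 1 at 0 µg/ml (limma adjusted p = 0.0506) and with each library centred on its median (0.0639). MRPS18C lost it without replicate 1 at 1 or replicates 1 or 2 at 10 µg/ml (limma adjusted p = 0.0563, 0.0664 and 0.0779), and with each library centred on its median (0.0546). MRPL33 lost it without replicate 3 at 1, 1 or 3 at 10 or 2 at 50 µg/ml (limma adjusted p = 0.0549, 0.0743, 0.0957 and 0.0518), under quantile normalization (0.0641) and without the variance trend (0.0633). MRPL18, MRPL15 and MRPL52 lost it in 13, 13 and 14 of the 18 fits that leave out 1 library.

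At 10 µg/ml many members were slightly lower together. The log2 fold change was below zero for 58 of 73 members, 40 of 48 in the large and 18 of 25 in the small subunit, with a median of -0.052. Over all tested genes the median was 0.016, with 5118 of 12127 below zero. All 3 libraries at 10 µg/ml lay below all 3 at 0 µg/ml for 15 members and above them for 0, against 6.84% and 10.1% of all tested genes. The members with the smallest unadjusted p were MRPL33 (-0.21), MRPL20 (-0.13) and MRPL27 (-0.15), with limma adjusted p of 0.320, 0.407 and 0.464. Cytosolic ribosomal protein genes moved the same way, with a median of -0.086 over 79 genes. The 3031 shortest tested genes had a median of -0.042 and the 3031 longest 0.051, and 52 of the 73 members are among the shortest. The part of length in the members' shift was not tested. Without replicate 3 at 0 µg/ml the member median was -0.030, with 51 of 73 below zero, and with each library centred on its median it was -0.078.

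At 2.5 µg/ml the median was -0.028, with 47 of 73 members below zero, against 5175 of 12127 tested genes. All 3 libraries lay below those at 0 µg/ml for 2 members, MRPL18 and MRPS5, and above for 0, against 3.51% and 4.77% of all tested genes. This median was 0.012 without replicate 3 at 2.5 µg/ml and 0.0047 with array weights per library, so its sign is not stable. It was -0.00091 without replicate 3 at 0 µg/ml, -0.050 without replicate 1 at 2.5 µg/ml and -0.044 with each library centred on its median. The smallest unadjusted p belonged to MRPL18 (-0.11), MRPL32 (-0.13) and MRPS5 (-0.080), each with a limma adjusted p of 0.994. At 1 µg/ml the median was 0.014, but -0.0047, 0.0037 and 0.033 without replicates 1, 2 and 3 at 0 µg/ml. There 6 members lay above and 2 below, against 3.78% and 4.63% of all tested genes. MRPS18C (0.16), MRPL19 (0.086) and MRPS9 (0.080) had the smallest unadjusted p there, each with a limma adjusted p of 1.00.

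The balance of the subunits moved little at any dose, though the ratio was slightly lower at 1 and 10 µg/ml than at 0 µg/ml. Summed FPKM of the large subunit was 2918 to 3287 per library and that of the small subunit 1026 to 1139, and the members together held 1.02% to 1.07% of all FPKM. The ratio of the large to the small sum averaged 2.88 ± 0.017 at 0, 2.83 ± 0.027 at 1, 2.86 ± 0.025 at 2.5, 2.84 ± 0.023 at 10, 2.86 ± 0.033 at 50 and 2.90 ± 0.026 at 100 µg/ml (SD, n = 3 each). Single libraries lay between 2.80 (1 µg/ml, replicate 2) and 2.93 (100 µg/ml, replicate 1). The difference from 0 µg/ml in the log2 ratio was 0.012 at 100, -0.0072 at 50, -0.020 at 10, -0.0076 at 2.5 and -0.022 at 1 µg/ml, beside SDs within doses of 0.0087 to 0.017. A sum over chosen members carries no test here. With MRPS30 and MRPS18A counted in the large subunit, where their proteins sit, the ratio was 2.99 to 3.13. The subunits under other symbols, DAP3, PTCD3, AURKAIP1, CHCHD1 and GADD45GIP1, were in neither sum. AURKAIP1 alone averaged 198.6 FPKM at 0 µg/ml, so the ratio depends on which symbols were matched and listed. By means of log values in place of sums, the difference at 100 µg/ml was -0.0079, so its direction depends on how members are weighted. Leaving out 1 library gave differences of -0.027 to -0.014 at 1 and -0.025 to -0.014 at 10 µg/ml. By means of log values the libraries at 1 µg/ml overlapped those at 0 µg/ml.

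The median log2 fold change at 100 µg/ml was 0.0069 over the large and 0.010 over the small subunit, and at 10 µg/ml it was -0.051 and -0.053. In the groups by protein position used above, which leave out MRPS18A and MRPS28, it was 0.018 among homologs of bacterial proteins (29 large-subunit genes) and -0.0038 (13 small-subunit genes) at 100 µg/ml. Among added proteins it was -0.0044 (20 genes) and 0.051 (9 genes). Of the 3 calls at that dose, MRPL11 is a homolog and MRPL52 and MRPS35 are added proteins.

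**Figure D4:**
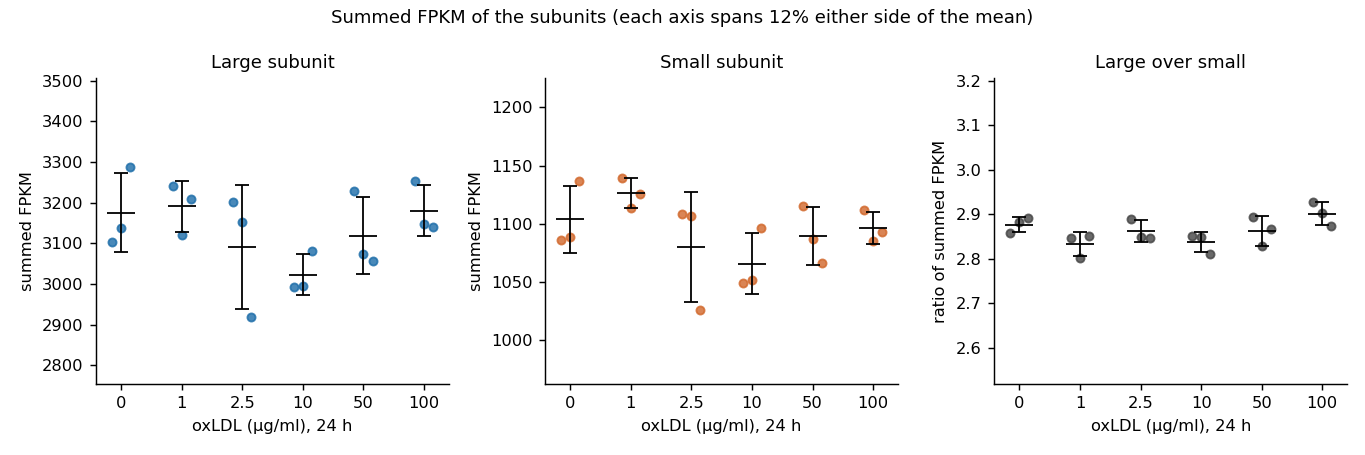
Summed FPKM of the large-subunit and small-subunit genes and their ratio in each library (points), with mean and SD of 3 libraries per dose; each axis spans 12% either side of the mean and does not start at 0. Both sums are lowest in replicate 3 at 2.5 µg/ml, and the ratio stays between 2.80 and 2.93.

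Single libraries moved the members as a block. For each library the median over members of log2(FPKM + 0.5) minus the mean of the other 2 libraries of the dose was taken. The largest shift was -0.12 in replicate 3 at 2.5 µg/ml, where 67 of 73 members were lower, with -0.12 in the large and -0.11 in the small subunit. The largest upward shifts were 0.076 in replicate 1 at 2.5, 0.066 in replicate 1 at 50, 0.062 in replicate 3 at 10 and 0.056 in replicate 3 at 0 µg/ml. These 5 libraries were the only ones beyond 0.05. Each library also serves in the comparison of the other 2 of its dose, so the 3 shifts of a dose are tied together. At 2.5 µg/ml the members held 1.066%, 1.060% and 1.021% of FPKM in replicates 1, 2 and 3. Replicate 1 was thus close to replicate 2, and its upward shift partly reflects the low replicate 3. Both subunits shifted the same way in 17 of 18 libraries, the exception being replicate 3 at 1 µg/ml (0.022 large, -0.0089 small).

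Other gene groups moved with these shifts. Cytosolic ribosomal protein genes shifted in the members' direction in 18 of 18 libraries, and by -0.15 in replicate 3 at 2.5 µg/ml. The 3031 shortest tested genes did so in 17 libraries, and the 3031 longest went the opposite way in 16. Because the shifts within a dose are tied together, these counts are not of 18 independent libraries. In replicate 3 at 2.5 µg/ml the shortest shifted by -0.077 and the longest by 0.098. That library also had the lowest sum of FPKM, 386396, against 393340 to 413363 in the others, and a depth of 21342853 reads. Whether transcript length or the library total accounts for the shift was not tested.

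**Figure D5:**
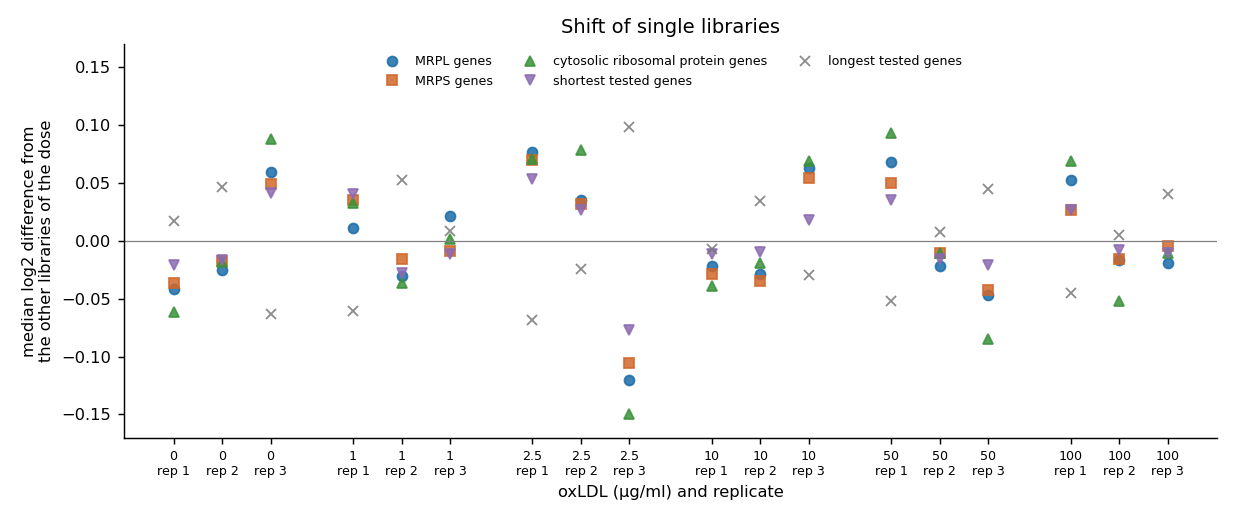
Median log2 difference of each library from the mean of the other libraries of its dose, for MRPL genes, MRPS genes, cytosolic ribosomal protein genes and the 3031 shortest and 3031 longest tested genes. Replicate 3 at 2.5 µg/ml stands lowest for all but the longest genes, which stand highest there (0.098).

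Among single members the largest deviation was that of MRPS28, 0.36 in replicate 1 at 100 µg/ml. MRPS28, a small-subunit protein, had 10.53, 7.98 and 8.23 FPKM at 100 µg/ml and 9.29, 8.17 and 8.47 FPKM at 0 µg/ml. It also had the largest SD within doses among the members, 0.13 on the log2 scale, beside 0.11 from counting alone at a median of 159 reads. MRPL22 (-0.29) and MRPL53 (-0.25) deviated most in replicate 3 at 2.5 µg/ml, with SDs within doses of 0.093 and 0.11 beside 0.031 and 0.049 from counting. The median SD within doses was 0.062 for members and 0.076 for all tested genes, but 0.061 for the tested genes with a mean between 5 and 300 FPKM.

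Subunits of the mitochondrial ribosome under other symbols were DAP3, PTCD3, AURKAIP1, CHCHD1 and GADD45GIP1. DAP3, a GTP-binding small-subunit protein, rose at 100 µg/ml. It had 54.6, 53.7 and 53.7 FPKM at 100 µg/ml and 47.6, 46.8 and 48.5 FPKM at 0 µg/ml. The groups were far apart beside their spread (log2 fold change 0.18, SE 0.029, limma adjusted p = 0.000519), and the call held in all 29 other settings tried. The other 4 were not called at any dose. Their log2 fold changes at 100 µg/ml were -0.073 (PTCD3), -0.021 (AURKAIP1), -0.077 (CHCHD1) and -0.065 (GADD45GIP1), with limma adjusted p of 0.20 to 0.855.

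Of 30 tested factors that assemble the mitochondrial ribosome, 1 rose at 100 µg/ml and 0 fell, where 7.94% and 7.51% of all tested genes did. NDUFAB1, an acyl carrier protein that also joins an assembly module, rose to 106.0 ± 5.08 FPKM at 100 µg/ml, against 92.9 ± 2.13 FPKM at 0 µg/ml (SD, n = 3 each; log2 fold change 0.19, limma adjusted p = 0.0189). This call was lost without replicate 1 at 0 or replicates 1 or 3 at 100 µg/ml (limma adjusted p = 0.0775, 0.0817 and 0.0679), and with each library centred on its median (0.0551). The slope called 4 rising (NDUFAB1, DHX30, RPUSD4 and MRM3) and 1 falling (GTPBP8), against 13% and 12.6% of all tested genes. The RPUSD4 and MRM3 slope calls were lost in 4 and 6 of 28 other settings. Of 17 translation factors and related proteins 2 rose at 100 µg/ml, where 7.94% of all tested genes did. GFM2, a recycling factor, and MTRF1L, a release factor, had log2 fold changes of 0.11 and 0.13 (limma adjusted p = 0.0481 and 0.0401), and these calls were lost in 20 and 8 of 29 other settings. Among the 17 the slope called 3 rising and 0 falling, against 13% and 12.6% of all tested genes. Rising were GFM2, LRPPRC and MTRF1L (limma adjusted p = 0.00089, 0.0025 and 0.0154). The GFM2 and LRPPRC slope calls held in all 28 other settings, and that of MTRF1L was lost in 1.

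Of 20 tested genes for charging mitochondrial tRNA, 1 rose and 1 fell at 100 µg/ml, where 7.94% and 7.51% of all tested genes did. GARS1, a synthetase that serves cytosol and mitochondria, rose by 0.18 (limma adjusted p = 0.00640), and TARS2, the mitochondrial threonine enzyme, fell with -0.15 (limma adjusted p = 0.00961). The TARS2 call was lost without replicate 1 at 0 µg/ml (0.0590). The slope called 4 rising (GARS1, MARS2, QRSL1 and GATC) and 1 falling (RARS2), against 13% and 12.6% of all tested genes. In that order the limma adjusted p of the slope was 0.00025, 0.0102, 0.0137, 0.0189 and 0.0354. The first 3 calls held in all 28 other settings, and those of GATC and RARS2 were lost in 2 and 9. Of 10 tested regulators of mitochondrial gene expression, ESRRA and MYC rose at 100 µg/ml (0.23 and 0.15, limma adjusted p = 0.0114 and 0.0138), where 7.94% of all tested genes did. The ESRRA call was lost without replicate 3 at 0 µg/ml (0.0532), and the MYC call without replicate 2 at 0 or 2 at 100 µg/ml (0.0786 and 0.0548) and in a fit of the 2 doses alone (0.0644). Of the 10 regulators the slope called 3 rising and 0 falling, against 13% and 12.6% of all tested genes. These were ESRRA, MYC and TFB2M (limma adjusted p = 0.00059, 0.0042 and 0.0050), and their slope calls held in all 28 other settings. At 50 µg/ml GFM2 alone was called among these 5 groups (higher, limma adjusted p = 0.0460), where 3.78% of all tested genes were higher, and this call was lost in 16 of 29 other settings. Of 13 mRNAs and 2 ribosomal RNAs encoded in mitochondrial DNA that were looked up, 0 were among the tested genes, so they were not analysed here.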

How the data were processed

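The authors deposited FPKM for each gene symbol and library. DESeq2, featureCounts, HISAT2 2.0.5 and hg38 appear in the submitters' processing notes, without their role or order, and the annotation release is not given in the sources used here. In 13970 of the 13992 genes (99.84%) the deposited FPKM were whole multiples of a step within 0.05 reads, which gave read numbers, lengths and depths. Because the deposited unit is FPKM, the main test was limma 3.58.1 (R 4.3.3) on log2(FPKM + 0.5), a scale that understates changes of low genes. The 18 libraries were fitted together with 1 mean per dose and a variance trend, two-sided, with Benjamini-Hochberg adjustment over 12127 genes at FPKM of at least 0.5 in at least 3 libraries. The test was checked on simulated data in which genes varied independently and no library shift was shared between genes. That check therefore does not cover the single-library shifts seen here. Libraries of a dose differed beyond counting noise, with a chi-square per degree of freedom of 2.04 to 8.25. Positions come from GENCODE v29 and promoter sequences from RefSeq (GRCh38.p14).

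Genes named are those called (up to 12 per direction at 50 and 100 µg/ml, otherwise the 3 smallest p), the 4 highest and 4 lowest per subunit, the F and slope calls, the largest deviations and SDs, and genes fixed by name. Members and gene lists were chosen with earlier results of these data known. Other scalings, filters, pseudocounts, limma-voom on recovered reads and leaving out each library were tried. The intervals rest on the scatter of libraries within doses in the limma fit. The SDs from counting rest on recovered reads and cover counting error only.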

Additional observations from a re-analysis of the deposited data

How the results depend on the processing

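Counts at 10, 2.5 and 1 µg/ml stayed at 0 members in all 29 settings beside the reported one. With each library centred on its median, 0 members were higher at 100 and 0 higher and 0 lower at 50 µg/ml, 1 passed the F test, 2 rose with dose, and the largest library shift was -0.17. Array weights gave 6 higher and 4 lower at 100, 3 higher and 3 lower at 50, 15 by F and 7 rising. Quantile normalization gave 3 lower at 100, 0 higher at 50 and 7 rising. Fitting only the 2 doses compared gave 1 higher and 2 lower at 100 and 0 higher at 50. A fit without variance trend gave 0 lower at 50 and 2 by F. The mean of log values gave a large over small difference of -0.0079 at 100 µg/ml. The cause of these differences was not tested. Leaving out 1 library gave 0 to 4 higher and 0 to 2 lower at 100, 0 to 2 higher and 0 to 2 lower at 50, 2 to 7 by F, 3 to 6 rising and 5 to 9 falling, and large over small differences of 0.0056 to 0.019 at 100 and -0.015 to 0.0016 at 50 µg/ml. The replicate block gave 2 higher and 1 lower at 100, 1 and 1 at 50, 5 by F, 3 rising and 7 falling. Same-numbered libraries correlated at -0.33 to 0.24 (median 0.011, 45 pairs), and 5 of 18 correlated best with their own number. Libraries of different number correlated at -0.24 to 0.25 (median -0.0055, 90 pairs). The labels do not say whether the numbers pair libraries, and these correlations cannot settle it. Genes with few reads, such as MRPS28 with 159, are limited by counting.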

Other observations

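MRPL49, a large-subunit protein added in mitochondria and a gene picked out after its values were seen, varied least of all 12127 tested genes. Its SD was 0.012 on the log2 scale within doses and 0.017 over 18 libraries, where the members' medians were 0.062 and 0.066. Its level was 69.3, 68.9 and 69.5 FPKM at 100 µg/ml and 69.9, 69.5 and 70.0 FPKM at 0 µg/ml, and 71.9 FPKM at most, in replicate 3 at 50 µg/ml. The SD within doses was below the 0.025 that counting alone would give at its median of 3157 reads. MRPL49 shares exon bases with FAU and SYVN1 on the opposite strand.

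The head-to-head pair MRPL46 and MRPS11 joins a gene of each subunit. MRPL46 averaged 33.6 ± 2.16 FPKM at 100 µg/ml and 33.7 ± 0.696 FPKM at 0 µg/ml, and MRPS11 averaged 11.2 ± 0.263 FPKM and 11.6 ± 0.334 FPKM at those doses (SD, n = 3 each). Neither was called at any dose. The YY1 letters were in 19% of large-subunit and 12.5% of small-subunit promoters, and the ETS letters in 21.4% and 8.33% (42 and 24 promoters).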
